A study of Mus musculus with 8 samples.

Results

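The UDP-glucuronosyltransferases of mouse liver were described in 10 genes: Ugt1a1, Ugt1a5, Ugt1a6a and Ugt1a9 of the Ugt1a locus, and Ugt2b1, Ugt2b5, Ugt2b34, Ugt2b35, Ugt2b36 and Ugt2a3 of the Ugt2 cluster. They were found by their symbols among the 52636 genes of the files, which also hold 12 other Ugt genes. RNA of whole liver was sequenced in 8 samples from C57BL/6 mice aged 8 weeks. The cKO group (n = 4, genotype CTCF fl/fl Albcre+) carried floxed Ctcf alleles and Cre recombinase under control of the albumin promoter, a promoter used in hepatocytes. The WT group (n = 4, genotype CTCF fl/fl Albcre-) carried the same floxed alleles and no Cre. There was no group with Cre and intact Ctcf alleles, so Cre itself and the loss of Ctcf cannot be told apart. The labels give neither sex nor a statement that each sample was a separate mouse, so p-values measure only how these samples vary, which may be technical.

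UDP-glucuronosyltransferases are membrane enzymes of the endoplasmic reticulum. They transfer glucuronic acid from UDP-glucuronic acid to bilirubin, steroids, bile acids, drugs and other lipophilic compounds, which can then leave the cell in bile or blood. Each Ugt1a transcript begins at its own first exon, which encodes the part of the enzyme that binds the substrate, and is spliced to downstream exons that all Ugt1a transcripts share. The Ugt2 enzymes come from separate neighbouring genes that are similar in sequence. CTCF, the product of the deleted gene, binds DNA through zinc fingers and helps to form chromatin loops.

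The coding sequences of the 4 Ugt1a members show what these genes have in common. The coding lengths were 1608 bases in Ugt1a1, 1590 in Ugt1a5, 1596 in Ugt1a6a and 1587 in Ugt1a9. The last 740 coding bases were identical in all 9 Ugt1a genes, which is 46.0% to 46.6% of each coding sequence, so a read from there cannot be assigned to one gene by its letters. The 60 bases around the point where the sequences become identical are given below, with 45 bases of the gene's own first part in lower case and the first 15 shared bases in capitals. They begin at coding base 824 in Ugt1a1, 806 in Ugt1a5, 812 in Ugt1a6a and 803 in Ugt1a9, in transcripts of Gencode vM1.
Ugt1a1: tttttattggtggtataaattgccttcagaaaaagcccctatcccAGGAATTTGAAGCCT
Ugt1a5: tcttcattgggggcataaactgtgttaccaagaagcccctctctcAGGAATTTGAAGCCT
Ugt1a6a: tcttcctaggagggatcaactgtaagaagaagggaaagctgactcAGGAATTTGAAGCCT
Ugt1a9: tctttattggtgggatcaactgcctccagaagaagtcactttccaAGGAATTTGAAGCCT
Before that point Ugt1a5 was 57.9% identical to Ugt1a1, 55.8% to Ugt1a9 and 55.7% to Ugt1a6a. Its nearest relative was Ugt1a2, at 81.6%. Ugt1a6a and Ugt1a6b were 97.0% identical even in their own first parts, and Ugt1a9 and Ugt1a10 were 91.2% identical there. In the Ugt2 cluster, Ugt2b5 was 97.0% identical over its coding sequence to Ugt2b38, 94.7% to Ugt2b37, 88.7% to Ugt2b36 and 87.7% to Ugt2b35, but only 65.6% to Ugt2a3. Levels of these close relatives are therefore uncertain where shared reads were divided between them.

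Assigned counts came to between 50.3 and 57.3 M in cKO libraries and between 43.9 and 50.4 M in WT libraries. Levels are given in CPM, counts per library total adjusted with TMM scaling factors, and a library with a count of 0 for a gene limits its level to 0.0524 to 0.0683 CPM, by counting error alone. Ctcf itself averaged 12.2 ± 0.945 CPM in cKO livers and 16.5 ± 0.41 CPM in WT livers (SD, n = 4 each), a log2 change of -0.44 (SE 0.08, adjusted p = 0.00177, edgeR quasi-likelihood test with Benjamini-Hochberg adjustment). Every cKO library lay below every WT library, although limma on TPM, a level per transcript length, did not call Ctcf (log2 change -0.15 with a pseudocount of 1, adjusted p = 0.147; all alternatives 1.29e-05 to 0.15). The 14 hepatocyte markers tested were abundant in both groups, with summed levels of 109000 to 123000 CPM in cKO and 100000 to 128000 CPM in WT livers. In whole liver, fewer cells of a type and less RNA per cell cannot be told apart.

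All 10 members passed the filter on low counts. At adjusted p under 0.05, Ugt1a5 and Ugt2b35 rose in cKO livers and Ugt1a6a, Ugt2b5 and Ugt2b36 fell, while the other 5 members were not called. Over all 15562 genes tested, 15.2% were called higher, 14.9% lower and 30.1% in either direction. The members' median log2 change was 0.07, against -0.01 over all tested genes. The groups did not overlap in 4 members, which were the called ones other than Ugt1a6a. cKO lay wholly above WT in 2 members, against 15% of all tested genes, and wholly below in 2, against 15.6% (either way 30.6%).

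**Figure D1:**
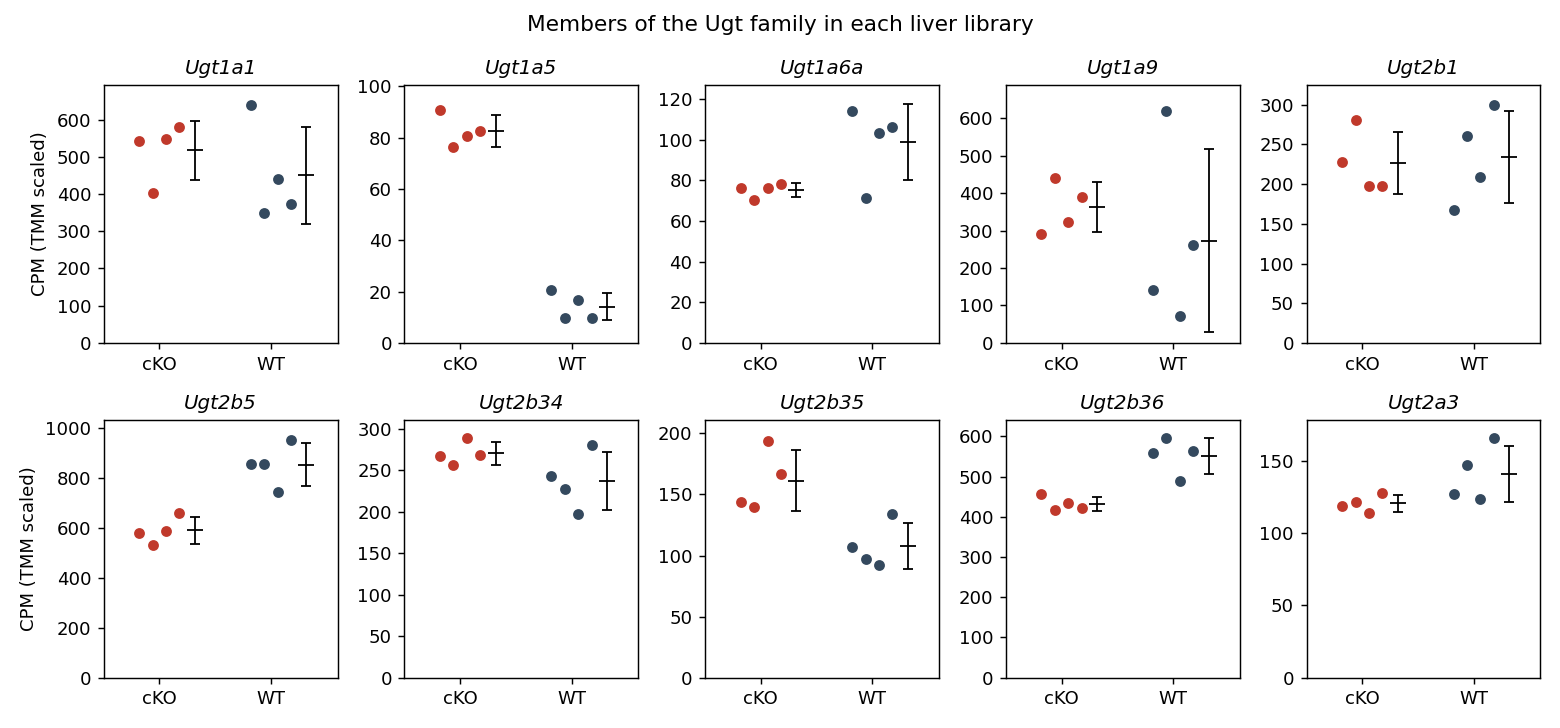
Level of each of the 10 members in CPM (vertical axes, each from 0) in the 4 cKO libraries, on the left of each panel, and the 4 WT libraries, on the right; points are libraries and bars the mean with its SD. Ugt1a5 lies between 76.3 and 90.8 CPM in cKO and between 9.62 and 20.5 CPM in WT, while Ugt1a9 spreads from 72.0 to 620 CPM within WT.

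In the Ugt1a locus, Ugt1a5 (ENSMUSG00000089943; mm10 chromosome 1, 88166012 to 88220002) differed most. It stood at 90.8, 76.3, 80.8 and 82.6 CPM in the cKO libraries, against 20.5, 9.72, 16.9 and 9.62 CPM in the WT libraries. The lowest cKO library was above the highest WT library by a wide margin, and the cKO libraries lay close together. It rose by 2.54 on the log2 scale (SE 0.26, adjusted p = 0.00066 by edgeR), 5.83-fold in mean CPM. Per length, Ugt1a5 averaged 48.5 ± 3.6 TPM in cKO and 7.32 ± 2.75 TPM in WT livers (SD, n = 4 each).

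Ugt1a1 (ENSMUSG00000089960; chromosome 1, 88211959 to 88220002), the enzyme that conjugates bilirubin, stood at 543, 402, 548 and 579 CPM in the cKO libraries. In the WT libraries it stood at 638, 350, 440 and 373 CPM. The highest value of all was in WT replicate 1 and the groups overlapped. Its log2 change was 0.20 (SE 0.20, adjusted p = 0.472, edgeR), 0.42 without WT replicate 1 (adjusted p = 0.0414) and 0.10 without WT replicate 2 (adjusted p = 0.746), the lowest and highest p over all alternatives.

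Ugt1a9 (ENSMUSG00000090175; chromosome 1, 88070779 to 88220002), whose human namesake conjugates phenols and many drugs, stood at 292, 441, 324 and 390 CPM in the cKO libraries. The WT libraries held 141, 620, 72.0 and 260 CPM. WT replicate 2 was the highest of all libraries and WT replicate 3 the lowest, and all cKO libraries lay between WT values. Its log2 change was 0.41 with an SE of 0.65 (adjusted p = 0.675, edgeR), 1.20 without WT replicate 2 (adjusted p = 0.106) and 0.09 without WT replicate 3 (adjusted p = 0.923). WT replicate 2, the library with most Ugt1a9, had the least Ugt1a1 and Ugt1a6a of the WT group.

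Ugt1a6a (ENSMUSG00000054545; chromosome 1, 88134809 to 88220002) belongs to the Ugt1a6 enzymes, which act on planar phenols. It stood at 76.0, 70.3, 76.0 and 78.1 CPM in the cKO libraries, against 114, 71.4, 103 and 106 CPM in the WT libraries. WT replicate 2 lay inside the cKO range and the other WT libraries above it. Ugt1a6a fell by 0.39 on the log2 scale (SE 0.12, adjusted p = 0.032, edgeR). Leaving out any single library other than WT replicate 2 ended the call (adjusted p between 0.0625 and 0.0866), and without WT replicate 2 the log2 change was -0.52 (adjusted p = 0.00141, within 0.00141 to 0.449 over all alternatives). Its near-identical neighbour Ugt1a6b averaged 63.1 ± 6.34 CPM in cKO and 88.3 ± 29.1 CPM in WT livers (log2 change -0.49, adjusted p = 0.198). Added together, both genes averaged 139 ± 8.04 CPM in cKO and 186 ± 47.3 CPM in WT livers (SD, n = 4 each), with a log2 change of -0.44 that was not called (adjusted p = 0.0874, edgeR).

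The sum over all Ugt1a genes does not depend on how shared reads were divided among them. It came to 1081, 1055, 1096 and 1193 CPM in the cKO libraries, against 1028, 1107, 746.3 and 851.6 CPM in the WT libraries. The groups overlapped, since WT replicate 2 lay above 3 of the cKO libraries. The log2 change was 0.25 (SE 0.11, adjusted p = 0.127, edgeR). With scaling to library size alone it was 0.35 (adjusted p = 0.0372), and on TPM 0.45 (adjusted p = 0.0235 with a pseudocount of 1), both called. Without WT replicate 3 it was 0.15 (adjusted p = 0.313), and the adjusted p ran from 0.0222 to 0.313 over the alternatives.

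Within the locus, Ugt1a5 took 8.39%, 7.24%, 7.37% and 6.93% of the counts in the cKO libraries, and 2%, 0.877%, 2.26% and 1.13% in the WT libraries. All cKO shares lay above all WT shares. The mean share was 7.48 ± 0.635% in cKO and 1.57 ± 0.666% in WT livers, a difference of 5.92 percentage points (p = 0.0286 in an exact two-sided permutation test, the smallest p for 4 libraries against 4; 0.0715 after adjustment over the 15 shares tested). Ugt1a1 took the largest mean share in both groups, 46.7 ± 5.78% in cKO and 49.1 ± 14.1% in WT livers (exact permutation p = 0.743). Ugt1a9 took 32.8 ± 6.46% in cKO and 27.5 ± 21.0% in WT livers (exact permutation p = 0.657), with 9.65% in WT replicate 3 and 56.0% in WT replicate 2. Ugt1a6a took 6.79 ± 0.226% in cKO and 10.9 ± 3.19% in WT livers (exact permutation p = 0.143).

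**Figure D2:**
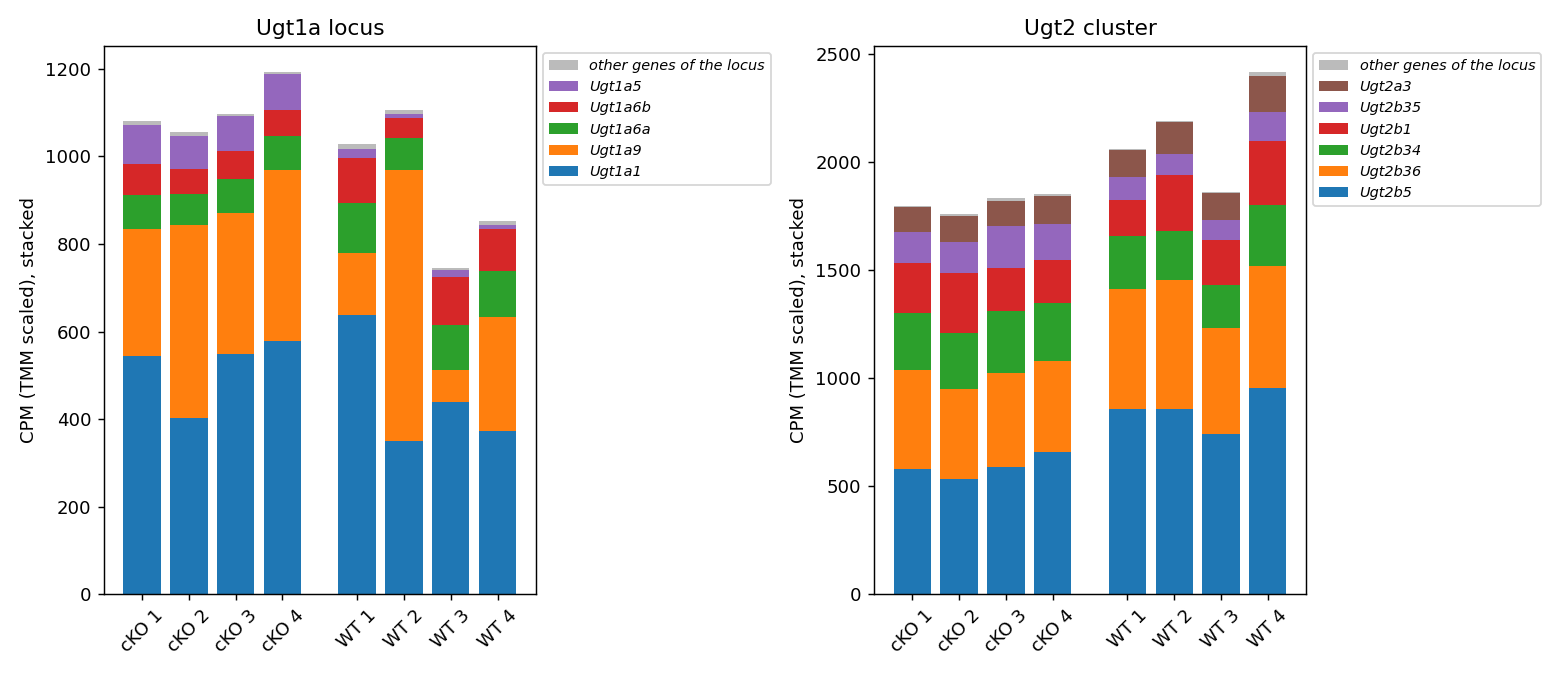
CPM of the genes of the Ugt1a locus and of the Ugt2 cluster, stacked (vertical axes, from 0), with 1 bar per library and the 4 cKO libraries left of the 4 WT libraries. The Ugt1a5 segment holds 76.3 to 90.8 CPM in cKO and 9.62 to 20.5 CPM in WT, and the Ugt1a9 segment varies from 72.0 to 620 CPM among WT libraries.

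Each Ugt1a first exon has its own promoter, and that of Ugt1a5 is shown because this member had the largest change. The 120 bases before its RefSeq start are given on the plus strand of mm10 (RefSeq annotation of GRCm38.p6), with a motif match in capitals.
Ugt1a5, chr1:88165892-88166011: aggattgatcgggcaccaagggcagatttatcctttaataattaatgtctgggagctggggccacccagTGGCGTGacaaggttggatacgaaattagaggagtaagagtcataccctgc
Capitals mark TNGCGTG, the core of the xenobiotic response element bound by the aryl hydrocarbon receptor. Both strands of the 250 bases before the start were searched in 32851 RefSeq promoters. TNGCGTG was found in 4.1% of promoters and in Ugt1a5 alone among the 10 members. AGGNGGC, part of the core of the CTCF motif, was found in 25.0% of promoters and TATAAA in 12.4%, and neither was in these windows of the 10 members. The motifs do not overlap in the window shown. A match is a description of the letters and says nothing of binding.

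In the Ugt2 cluster, whose enzymes act on steroids, bile acids and drugs, Ugt2b5 (ENSMUSG00000054630; chromosome 5, 87124946 to 87140340) was the most abundant member. It stood at 579, 532, 589 and 659 CPM in the cKO libraries, against 855, 857, 743 and 954 CPM in the WT libraries. The groups did not overlap. Ugt2b5 fell by 0.53 on the log2 scale (SE 0.09, adjusted p = 0.00199, edgeR), with 590 ± 52.1 CPM in cKO and 852 ± 86.3 CPM in WT livers (SD, n = 4 each), 0.692-fold.

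Ugt2b36 (ENSMUSG00000070704; chromosome 5, 87065927 to 87092555) stood at 457, 418, 435 and 422 CPM in the cKO libraries, against 558, 595, 490 and 565 CPM in the WT libraries. All cKO libraries were below all WT libraries. Ugt2b36 fell by 0.35 on the log2 scale (SE 0.08, adjusted p = 0.00654, edgeR). On TPM the log2 change was -0.14 and not called (adjusted p = 0.233 with a pseudocount of 1; the alternatives ran from 0.000152 to 0.233).

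Ugt2b35 (ENSMUSG00000035811; chromosome 5, 87000860 to 87013274) was the Ugt2 member that rose. It stood at 144, 140, 194 and 167 CPM in the cKO libraries, against 107, 96.9, 92.5 and 134 CPM in the WT libraries. The groups came close but did not overlap, with WT replicate 4 the highest of its group. Ugt2b35 rose by 0.58 on the log2 scale (SE 0.13, adjusted p = 0.00868, edgeR), 1.5-fold in mean CPM.

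The other 3 Ugt2 members were not called. Ugt2b34 (ENSMUSG00000029260; chromosome 5, 86889770 to 86906937) stood at 267, 257, 289 and 269 CPM in the cKO libraries, against 243, 227, 198 and 281 CPM in the WT libraries. WT replicate 4 lay inside the cKO range and the other WT libraries below it, and the log2 change was 0.19 (SE 0.10, adjusted p = 0.172, edgeR). It was 0.11 without WT replicate 3 (adjusted p = 0.419), 0.28 without WT replicate 4 (adjusted p = 0.028), 0.30 with library size alone (adjusted p = 0.043) and 0.38 on TPM (adjusted p = 0.024 with a pseudocount of 1); the alternatives ran from 0.0231 to 0.419. Ugt2b1 (ENSMUSG00000035836; chromosome 5, 86916639 to 86926503) stood at 228, 281, 198 and 198 CPM in the cKO libraries, against 168, 261, 209 and 300 CPM in the WT libraries. Its groups overlapped almost wholly, and the log2 change was -0.05 (SE 0.18, adjusted p = 0.859, edgeR), with a sign that depended on the scaling. Ugt2a3 (ENSMUSG00000035780; chromosome 5, 87324972 to 87337195) stood at 119, 122, 114 and 128 CPM in the cKO libraries, against 127, 147, 124 and 166 CPM in the WT libraries. The highest cKO values overlapped the lowest WT values, and the log2 change was -0.22 (SE 0.10, adjusted p = 0.1, edgeR).

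**Figure D3:**
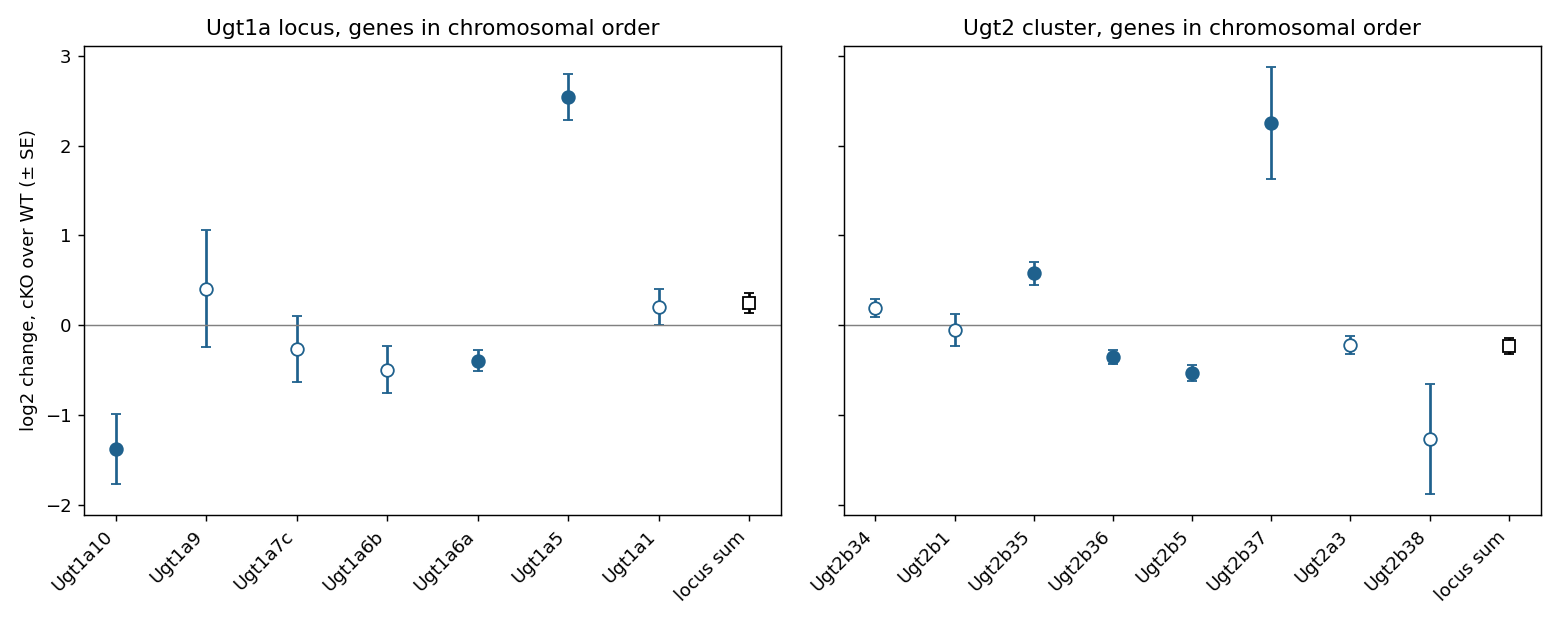
Log2 change, cKO over WT (vertical axis, bars are the SE), of the tested genes of the Ugt1a locus and the Ugt2 cluster in chromosomal order and of each locus sum (squares); filled points passed adjusted p of 0.05. Ugt1a5 at 2.54, Ugt2b37 at 2.25 and Ugt2b35 at 0.58 are the filled points above 0, and called genes stand next to uncalled ones in both loci.

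The sum over all Ugt2 genes was 1799, 1761, 1833 and 1852 CPM in the cKO libraries, against 2060, 2189, 1860 and 2417 CPM in the WT libraries. Every cKO library was below every WT library, though cKO replicate 4 and WT replicate 3 nearly met. The log2 change was -0.23 (SE 0.09, adjusted p = 0.0624, edgeR) and did not pass the threshold. It was called without WT replicate 3 (-0.30, adjusted p = 0.0315), with an offset for effective length (-0.30, adjusted p = 0.0241) and with DESeq2 (-0.23, adjusted p = 0.0329); the alternatives ran from 0.0241 to 0.397. Within the cluster, Ugt2b5 took 32.5 ± 2.21% of the counts in cKO and 40.0 ± 1.04% in WT livers. Ugt2b35 took 8.89 ± 1.24% in cKO and 5.03 ± 0.469% in WT livers, and Ugt2b34 took 14.9 ± 0.592% in cKO and 11.1 ± 0.71% in WT livers. None of these 3 shares overlapped between groups (SD, n = 4 each; exact permutation p = 0.0286 for each, 0.0715 after adjustment over the 15 shares). Ugt2b36 took 23.9 ± 1.1% in cKO and 26.0 ± 1.79% in WT livers (exact permutation p = 0.114). Shares within a cluster depend on each other, since a lower share of Ugt2b5 leaves more for the other genes. The level of Ugt2b34 itself was not called (log2 change 0.19, adjusted p = 0.172, edgeR). In CPM, 30.6% of all tested genes did not overlap between groups.

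The ratio of both sums within a library needs no scaling between libraries. Its log2 was -0.73, -0.74, -0.74 and -0.63 in the cKO libraries, against -1, -0.98, -1.32 and -1.51 in the WT libraries. The Ugt1a sum was thus below the Ugt2 sum in all 8 libraries, and closer to it in every cKO library than in any WT library. The mean was -0.71 ± 0.0519 in cKO and -1.20 ± 0.253 in WT livers (SD, n = 4 each), a difference of 0.49 (p = 0.0286 in the exact two-sided permutation test, again the smallest possible). Without any single cKO library the exact p was 0.0571 or 0.0857.

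**Figure D4:**
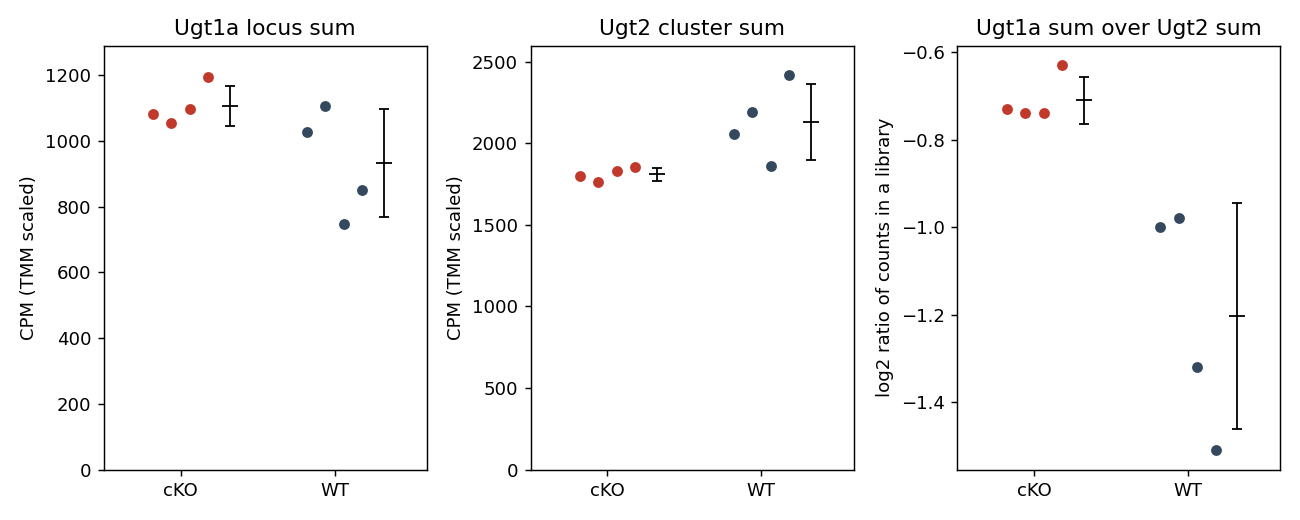
Summed CPM of the Ugt1a genes and of the Ugt2 genes, and the log2 of their ratio (vertical axes), in the 4 cKO libraries, left, and the 4 WT libraries, right; points are libraries and bars the mean with its SD. The log2 ratio is -0.74 to -0.63 in cKO and -1.51 to -0.98 in WT.

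Per length, Ugt2b5 was the highest member in both groups, with 418 ± 46.6 TPM in cKO and 532 ± 57.8 TPM in WT livers. Ugt2b36 was second, with 348 ± 12.9 TPM in cKO and 384 ± 41.3 TPM in WT livers, and its libraries did not overlap those of Ugt2b5 in either group. Ugt1a1 came next, with 302 ± 51.7 TPM in cKO and 230 ± 66 TPM in WT livers (SD, n = 4 each), and overlapped Ugt2b36 in cKO alone. Ugt1a9 followed with 214 ± 38.2 TPM in cKO and 143 ± 129 TPM in WT livers and overlapped Ugt1a1 in both groups. Next came Ugt2b34 and Ugt2b1, which overlapped each other in both groups, with 112 ± 8.24 and 112 ± 16.6 TPM in cKO and 86.1 ± 13.2 and 103 ± 25.9 TPM in WT livers. Ugt2a3 averaged 74.1 ± 4.24 TPM in cKO and 76.1 ± 11.3 TPM in WT livers. Ugt1a9 did not overlap Ugt2b34, nor Ugt2b1 Ugt2a3, in cKO livers, whereas in WT livers Ugt1a9 overlapped Ugt2b1, and Ugt2b34 overlapped Ugt2a3. The 3 lowest members were Ugt2b35, Ugt1a5 and Ugt1a6a in cKO livers, in that order, and Ugt1a6a, Ugt2b35 and Ugt1a5 in WT livers. Ugt2b35 averaged 60.4 ± 10.9 TPM in cKO and 35.4 ± 6.28 TPM in WT livers, and Ugt1a6a 39.7 ± 2.73 TPM in cKO and 44.7 ± 9.15 TPM in WT livers. Neighbours in this order overlapped except Ugt1a5 and Ugt1a6a in cKO livers, and Ugt2a3 and Ugt1a6a, and Ugt2b35 and Ugt1a5, in WT livers. Ugt1a5 was above Ugt1a6a in TPM in each cKO library and below it in each WT library. This order counts Ugt1a6a apart from its near-identical neighbour Ugt1a6b. Ugt1a6b averaged 35.3 ± 3.45 TPM in cKO and 43.5 ± 14 TPM in WT livers.

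Of the 12 other Ugt genes, 7 were tested, of which 1 rose, 2 fell and 4 were not called, with a median log2 change of -0.49. Over all tested genes, 30.1% were called. Ugt3a1, which transfers N-acetylglucosamine in humans, averaged 37.9 ± 6.38 CPM in cKO and 79 ± 4.79 CPM in WT livers (SD, n = 4 each; log2 change -1.06, SE 0.11, adjusted p = 7.43e-05, edgeR) with no overlap. Its relative Ugt3a2 averaged 209 ± 5.07 CPM in cKO and 212 ± 24.8 CPM in WT livers (log2 change -0.02, adjusted p = 0.881). Ugt2b37 stood at 3.92, 7.31, 11.5 and 7.15 CPM in the cKO libraries, against 0.979, 1.37, 0.435 and 3.53 CPM in the WT libraries. It was higher in each cKO library than in any WT library, with a log2 change of 2.25 (SE 0.62, adjusted p = 0.0344, edgeR; 0.00369 to 0.0875 over the alternatives, with the call ended by leaving out cKO replicate 2, 3 or 4 or WT replicate 1, 2 or 3, by a replicate block, adjusted p = 0.0731, or by omitting the filter on low counts, adjusted p = 0.0688). Ugt1a10 averaged 0.983 ± 0.16 CPM in cKO and 2.54 ± 1.45 CPM in WT livers (log2 change -1.37, adjusted p = 0.0285, edgeR). The adjusted p ran from 0.00115 to 0.0865 over the alternatives. Leaving out any cKO library or WT replicate 1 ended the call, as did TPM, limma-voom and omitting the filter. The own first part of Ugt1a10 was 91.2% identical to that of the far more abundant Ugt1a9, so its level is uncertain. Ugt2b38 averaged 2.26 ± 0.598 CPM in cKO and 5.43 ± 4.96 CPM in WT livers (log2 change -1.26, adjusted p = 0.164; -0.39 without WT replicate 4, adjusted p = 0.221), and Ugt1a7c 4.61 ± 2.17 CPM in cKO and 5.5 ± 1.61 CPM in WT livers (log2 change -0.26, adjusted p = 0.636).

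Of 11 genes that supply or use UDP-glucuronic acid, 2 rose, 2 fell and 7 were not called (median log2 change 0.04), where 30.1% of all tested genes were called. With library size alone 3 rose and 1 fell, and on TPM 3 rose and 0 fell. Ugdh, which makes UDP-glucuronic acid, averaged 117 ± 9.96 CPM in cKO and 111 ± 17 CPM in WT livers (log2 change 0.08, adjusted p = 0.604, edgeR). Gusb, the lysosomal enzyme that removes glucuronic acid, rose to 42.6 ± 6.46 CPM in cKO, against 24.1 ± 4.8 CPM in WT livers (SD, n = 4 each; log2 change 0.82, adjusted p = 0.00316). Gulo, which makes ascorbate from a product of glucuronic acid, rose by 0.41 on the log2 scale (adjusted p = 0.008), while Rgn of the same route changed by -0.43 (adjusted p = 0.012). Slc35b1, a nucleotide transporter of the endoplasmic reticulum, changed by -0.43 (adjusted p = 0.018; not called without cKO replicate 4, with library size alone, on TPM or with a replicate block, adjusted p = 0.0533; up to 0.106 over the alternatives).

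Of 13 genes of bilirubin formation, uptake and excretion, 1 rose, 2 fell and 10 were not called (median log2 change 0.02). With library size alone and on TPM 4 rose and 1 fell, and with DESeq2 3 rose and 2 fell. In the main comparison, 30.1% of all tested genes were called. Abcc4, an efflux transporter of the basolateral membrane, rose to 3.14 ± 0.268 CPM in cKO, against 1.28 ± 0.242 CPM in WT livers (log2 change 1.30, adjusted p = 0.000239, edgeR). Slco1a1, an organic anion uptake transporter, fell to 44.4 ± 9.11 CPM in cKO, against 95.3 ± 15.5 CPM in WT livers (log2 change -1.10, adjusted p = 0.00118). Blvrb, a biliverdin reductase, changed by -0.44 (adjusted p = 0.0207; not called without cKO replicate 2, 3 or 4 or WT replicate 1, with library size alone or on TPM, up to 0.103 over the alternatives). Abcc2, which exports bilirubin glucuronides into bile, averaged 422 ± 9.48 CPM in cKO and 443 ± 24.5 CPM in WT livers (SD, n = 4 each; log2 change -0.07, adjusted p = 0.475).

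Of 20 listed regulators of Ugt transcription, 1 rose, 5 fell and 14 were not called (median log2 change -0.23). This split turned with the scaling: with library size alone 4 rose and 2 fell, and on TPM 5 rose and 1 fell. By edgeR, 30.1% of all tested genes were called. Nr1i3, the nuclear receptor CAR, stood at 740, 569, 690 and 694 CPM in the cKO libraries, against 1420, 1560, 1260 and 877 CPM in the WT libraries. All cKO libraries lay below all WT libraries (log2 change -0.93, SE 0.16, adjusted p = 0.00248, edgeR). Other falls included Nr1h4, the bile acid receptor FXR (-0.37, adjusted p = 0.0107), Foxa3 (-0.33, adjusted p = 0.0135) and Hnf4a (-0.25, adjusted p = 0.0451), and Nr3c1, the glucocorticoid receptor, rose (0.25, adjusted p = 0.0414). The calls of Foxa3 without cKO replicate 2 or 3, of Nr3c1 without any library but cKO replicate 1 or WT replicate 4, and of Hnf4a without any library but WT replicate 1 were lost (adjusted p up to 0.111 for the last). Library size alone and TPM ended the calls of Nr1h4, Foxa3 and Hnf4a. That of Hnf4a also ended with a replicate block (adjusted p = 0.0576) and with upper quartile scaling (adjusted p = 0.0513). It ended as well with an offset for effective length (adjusted p = 0.0662) and without the filter (adjusted p = 0.0736). The adjusted p of Hnf4a reached 0.639 over the alternatives. Ahr, the aryl hydrocarbon receptor, was not called (0.08, adjusted p = 0.453). Of 18 listed targets of xenobiotic receptors, of PPAR alpha and of NRF2, 9 rose, 1 fell and 8 were not called (median log2 change 0.43). Srxn1, an antioxidant enzyme under the control of NRF2, rose by 1.01 (adjusted p = 0.000577), and Ehhadh and Cyp4a10, PPAR alpha targets of fatty acid oxidation, rose by 1.15 (adjusted p = 0.000532) and 0.59 (adjusted p = 0.00224). Gclc, also under the control of NRF2, was the 1 that fell (-0.40, adjusted p = 0.0114, edgeR). Its fall was not called with library size alone (adjusted p = 0.0511) or on TPM, with up to 0.143 over the alternatives. Cyp2b10, a known CAR target, averaged 28.5 ± 12.3 CPM in cKO and 3.68 ± 1.66 CPM in WT livers (SD, n = 4 each; log2 change 2.95, adjusted p = 0.00526, edgeR). The aryl hydrocarbon receptor targets Cyp1a1 (log2 change 0.55, adjusted p = 0.167) and Cyp1a2 (-0.25, adjusted p = 0.158) were not called. Nqo1, a target of this receptor and of NRF2, rose by 0.42 (adjusted p = 0.0227, edgeR), with 0.00401 to 0.0661 over the alternatives.

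The tested genes beside both loci had log2 changes between -0.40 and 0.51. Of the protein-coding neighbours of the Ugt1a locus on chromosome 1, Usp40 changed by -0.40 (adjusted p = 0.0204, edgeR), Atg16l1 by -0.24 (adjusted p = 0.0273) and Dgkd by 0.31 (adjusted p = 0.0297) on the log2 scale. Each of these 3 calls was lost without some single library (Usp40 without cKO replicate 2 or 4 or WT replicate 1, Atg16l1 without cKO replicate 1, 2 or 3 or WT replicate 1 or 3, and Dgkd without cKO replicate 3 or 4 or WT replicate 1 or 2). Library size alone and TPM also ended the calls of Usp40 and Atg16l1, and omitting the filter on low counts ended that of Atg16l1 (adjusted p = 0.0588). Inpp5d, 334.9 kb from the locus on the same side, was not called (-0.18, adjusted p = 0.38). On the other side of the locus, Mroh2a (0.03, adjusted p = 0.895), Hjurp (-0.30, adjusted p = 0.0545) and Spp2 (-0.21, adjusted p = 0.119) were not called. Beside the Ugt2 cluster on chromosome 5, the sulfotransferase gene Sult1d1, 63.8 kb away, rose by 0.37 (adjusted p = 0.0416, edgeR). Sult1d1 lost this call without any single library other than cKO replicate 1 or WT replicate 4. It also lost it with an offset for effective length (adjusted p = 0.0668). Its neighbours Sult1b1 (-0.22, adjusted p = 0.0867) and Sult1e1 (0.51, adjusted p = 0.364), and Ythdc1 on the other side (0.18, adjusted p = 0.0658), were not called.

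The genes nearest in pattern were sought by the root mean square difference of centred log2 CPM over the 8 libraries, for the called member with the largest rise and the one with the largest fall. For Ugt1a5 they were Tspan8 (difference 0.267), Ephb2 (0.286), Sybu (0.292), Kif1a (0.302) and Lynx1 (0.311). For Ugt2b5 they were Stard4 (0.078), Gemin6 (0.090), Slc48a1 (0.093), Prox1os (0.096) and Sort1 (0.097). This measure includes the difference between the groups, so it selects genes with a similar log2 change. These changes were 2.51 to 3.17 in the genes nearest Ugt1a5 and -0.47 to -0.37 in those nearest Ugt2b5. Shared regulation was not tested.

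Some markers of other cells and of sex differed with genotype beside these results, and other lists held few or no called genes. Over all tested genes, 15.2% were called higher and 14.9% lower. All 12 markers of stellate cells and fibroblasts rose (median log2 change 1.19), with summed levels of 308 to 411 CPM in cKO and 136 to 152 CPM in WT livers. Of 8 cholangiocyte markers tested, 4 rose and 1 fell (median 0.84), Tspan8 among the rises, with summed levels of 43.5 to 51.2 CPM in cKO and 47.0 to 62.1 CPM in WT livers. Of 9 T, NK and B cell markers 3 rose (5 with library size alone and 4 on TPM; median 0.62; 7.62 to 11.8 CPM in cKO and 5.02 to 9.42 CPM in WT livers), and of 11 Kupffer cell and macrophage markers 1 rose (median -0.07; 270 to 441 CPM in cKO and 324 to 494 CPM in WT livers). None of 10 sinusoidal endothelial markers was called by edgeR (1 at an unadjusted p under 0.05, 1 called by DESeq2; median 0.23; 235 to 356 CPM in cKO and 171 to 329 CPM in WT livers). No listed marker was at 0 in all libraries. Of 14 hepatocyte markers, 1 rose and 6 fell (median -0.21), but on TPM 3 rose and 3 fell. Of 12 pericentral markers, 2 rose and 1 fell (median 0.07), and of 11 periportal markers, 3 rose and 2 fell (median 0.01). Of 11 male-biased liver genes, 8 fell and none rose (median -1.26). Only 5 fell without cKO replicate 1, 2 or 4 or WT replicate 3, with a replicate block or without the filter. In 2 of the 19 alternatives, 1 of these genes rose. Of 8 female-biased genes tested, 3 rose and none fell (median 0.81). The part of these differences in the Ugt values was not tested.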

How the data were processed

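Liver RNA libraries were made with an Illumina TruSeq kit, per the labels' protocols. STAR 2.5.1 was the aligner and RSEM the quantifier, on mm10, per the submitters' processing notes. Not given in the sources used here are RSEM's version, the annotation and the strand setting. Per the file headers, the files the authors deposited hold expected counts per gene, with reads that fit several genes divided by the authors' RSEM run, the effective length, TPM and FPKM (FPKM not used).

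Expected counts were rounded. Genes were filtered with filterByExpr (minimum count 10, minimum total 15), scaled with TMM, and compared with edgeR 4.0.16 (robust glmQLFit, glmQLFTest, Benjamini-Hochberg adjustment over 15562 genes, threshold 0.05). CPM use totals times TMM factors, except for the limit of a count of 0, which is 3 counts over the total. For locus sums, the genes of a locus were replaced by their sum before the fit. Shares and ratios were tested with exact two-sided permutations over samples. Libraries of a genotype differed by more than sampling noise (lowest chi-square over its degrees of freedom 28.6). The scripts were tested on simulated data.

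Alternatives were other scalings, filters, an effective length offset, a replicate block, DESeq2 1.42.0, limma 3.58.1 (voom and log2(TPM + 1) or log2(TPM + 0.1)) and leaving out each library. The sum of Ugt1a6a and Ugt1a6b was added after the data were seen.

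The members and gene lists were chosen with earlier results of these data known. The text names Ctcf, all members, tested other Ugt genes, the nearest protein-coding neighbours of both loci that were tested, genes nearest in pattern, and for each list its counts with examples. List examples beyond the 4 of smallest p (Ugdh, Abcc2, Hnf4a, Nr3c1, Ahr, Gclc, Cyp2b10, Cyp1a1, Cyp1a2, Nqo1) were chosen after their values were seen. An example that this rule names among the regulators is not reported here. Gene positions and promoters came from RefSeq's GRCm38.p6 (10 of 10 members matched), and coding sequences from Gencode vM1 transcripts, of which no coordinates were used.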

Additional observations from a re-analysis of the deposited data

Results flagged for a closer look

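Among 28 groups of 4 libraries, 1 held a library far from the other 3, and chance gives about 1 such group in 20. It was the log2 ratio of the Ugt1a sum over the Ugt2 sum in cKO replicate 4, at -0.635, where the other cKO libraries lay between -0.741 and -0.735. WT libraries lay between -1.51 and -0.98. Why cKO replicate 4 stood apart was not tested.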

How the results depend on the processing

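Ugt1a5 (2.39 to 2.79), Ugt2b5 (-0.59 to -0.35) and Ugt2b35 (0.49 to 0.77) kept their direction and call in all 19 alternatives. The "members lower in cKO" were 1 instead of 3 in both TPM tests. They were 2 with library size alone, with the length offset and without any single library other than WT replicate 2. The members higher in cKO were 2 or 3. For "Ugt1a locus sum, log2 cKO over WT" the change was called with library size alone (0.35) and on TPM with a pseudocount of 1 (0.45) or 0.1 (0.45). It ran from 0.15 to 0.34 when libraries were left out. For "Ugt2 cluster sum, log2 cKO over WT" it was called with the length offset (-0.30) and DESeq2 (-0.23), and ran from -0.30 to -0.17 when libraries were left out. Ugt2b1, at -0.05, turned to 0.05 with library size alone and to 0.15 and 0.15 on TPM, and ran from -0.18 to 0.09 when libraries were left out. Ugt3a2, at -0.02, turned to 0.09 with library size alone and to 0.17 and 0.17 on TPM, and ran from -0.06 to 0.06. Ugt1a7c ran from -0.54 to 0 when libraries were left out. TMM factors ran from 1.023 to 1.062 in cKO libraries and from 0.958 to 0.973 in WT libraries, and library size alone leaves these factors out. The cause of the shifts was not tested.

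Library size alone and TPM moved the median log2 change of all tested genes to between 0.10 and 0.15, and called 73.2% (library size alone) and 81.5% (TPM) of the called genes higher, against 50.5%. On TPM the falls of Ctcf, Ugt1a6a, Ugt2b36, Ugt1a10, Rgn, Slc35b1, Blvrb, Nr1h4, Foxa3, Hnf4a, Gclc, Usp40 and Atg16l1 were not called. Library size alone ended those of Ugt1a6a, Slc35b1, Blvrb, Nr1h4, Foxa3, Hnf4a, Gclc, Usp40 and Atg16l1. Same-numbered cKO and WT libraries did not deviate together (correlations of 0.04 to 0.06, none over 0.1), so the numbers were not taken as pairs, although 3 of the 4 cKO libraries, all but cKO replicate 2, matched the WT library of their own number best. With a replicate block, 2525 genes were higher and 2419 lower, against 2367 and 2322. The blocked values of "Ugt1a5 share of the Ugt1a locus" (5.92) and "Ugt1a sum over Ugt2 sum" (0.49) had an exact p of 0.125, the smallest that 4 pairs allow. Without single libraries the share differed by 5.61 to 6.15 percentage points and the log2 ratio by 0.39 to 0.56.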
